A study of Rattus norvegicus with 192 samples.

Results

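The comparison concerned 36 high-Fos and 36 low-Fos libraries of nucleus accumbens core, out of 159 libraries analysed, each from a different outbred heterogeneous stock rat. They were selected on Fos transcript level itself. Expression was scaled to CPM (counts per 1000000 of a library's total), 147 libraries with at least 100 CPM of Drd1, the D1 dopamine receptor, were kept, and these were ranked by Fos. High-Fos libraries are the 36 at the top of that ranking and low-Fos libraries the 36 at the bottom. The labels name polyA RNA of outbred laboratory rats and give no treatment, sex, age, time of death or batch, so the groups differ by a measured transcript and not by an intervention. Libraries can be told apart by label only through how the identifiers are written and through notes of a genotype mismatch fix. The high-Fos group held 15 libraries named by digits alone (numeric label), 14 named in the E21 format (E21 label) and 2 with an AA1 identifier. Its other 5 had an E21 identifier, but were labelled unknown before the submitters' genotype mismatch fix (corrected E21). The low-Fos group held 14 numeric, 21 E21 and 1 corrected E21 library. The odds of a numeric against an E21 label were 1.61 times as high in the high-Fos as in the low-Fos group (two-sided Fisher's exact test, p = 0.451). Corrected E21 and AA1 libraries, more of them in the high-Fos group, were not in that test.

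Fos is an immediate early gene, one of a set whose transcription starts within minutes of neuronal firing, growth factors or stress, without new protein synthesis. Calcium and cAMP signals reach such genes through CREB bound to the cAMP response element (CRE), and ERK signalling reaches them through serum response factor and its partners at the CArG box. The products are transcription factors (the Fos, Jun, Egr and Nr4a families, Npas4) and effectors that act at synapses or feed back on the kinases. In the accumbens, Fos protein is widely used as a sign of recent activity of medium spiny neurons, the main cell type of the striatum.

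Promoter windows of early genes were taken from RefSeq (rat assembly GRCr8) as the 250 bases before the annotated start. Of the 38 early genes tested, 30 had a window, and for 20 of these the start was the one in the deposited table. Arc, Jun, Egr3, Nr4a3, Atf3, Klf2, Trib1 and Csrnp1 had no window, nor had Fos itself. The windows below are those of the early genes named as markers beside Fos and of 2 further genes with a full CRE. They show where letters matching the CRE and the CArG box occur in these windows. Capitals mark the CRE core TGACG on either strand, the full palindromic CRE TGACGTCA, and the CArG box. All run 5′ to 3′ on the gene's strand. For Nr4a1 the deposited table places the start 12985 bases away. Among the windows not shown, the start is 11936 bases away for Npas4, 11039 for Nr4a2, 8647 for Arl4d and 5374 for Per1. Nr4a2 and Arl4d are counted below among the windows with a core, and Arl4d among those with a full CRE.
Nr4a1 (chr7:134259888-134260137, plus strand): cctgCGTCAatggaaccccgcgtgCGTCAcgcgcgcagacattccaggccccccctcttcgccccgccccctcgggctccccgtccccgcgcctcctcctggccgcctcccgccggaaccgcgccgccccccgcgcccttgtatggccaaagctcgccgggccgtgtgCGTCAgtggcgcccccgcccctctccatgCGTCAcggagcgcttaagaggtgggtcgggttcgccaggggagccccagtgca
Egr1 (chr18:26736828-26737077, plus strand): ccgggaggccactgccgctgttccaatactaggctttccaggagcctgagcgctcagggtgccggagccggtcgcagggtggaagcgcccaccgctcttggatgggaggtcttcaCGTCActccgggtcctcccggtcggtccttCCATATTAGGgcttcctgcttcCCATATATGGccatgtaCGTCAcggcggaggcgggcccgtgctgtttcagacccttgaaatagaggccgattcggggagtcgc
Junb (chr19:40080876-40081125, plus strand): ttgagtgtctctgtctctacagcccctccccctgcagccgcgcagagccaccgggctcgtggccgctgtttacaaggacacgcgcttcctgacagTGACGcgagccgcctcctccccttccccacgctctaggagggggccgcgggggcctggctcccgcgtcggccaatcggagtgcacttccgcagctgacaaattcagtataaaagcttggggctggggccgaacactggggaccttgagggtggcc
Btg2 (chr13:48087691-48087940, minus strand): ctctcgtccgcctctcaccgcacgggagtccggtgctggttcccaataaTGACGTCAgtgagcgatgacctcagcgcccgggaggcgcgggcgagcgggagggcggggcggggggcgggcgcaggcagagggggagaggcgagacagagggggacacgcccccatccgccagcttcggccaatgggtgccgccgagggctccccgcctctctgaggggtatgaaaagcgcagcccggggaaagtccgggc
Dusp1 (chr10:17184603-17184852, plus strand): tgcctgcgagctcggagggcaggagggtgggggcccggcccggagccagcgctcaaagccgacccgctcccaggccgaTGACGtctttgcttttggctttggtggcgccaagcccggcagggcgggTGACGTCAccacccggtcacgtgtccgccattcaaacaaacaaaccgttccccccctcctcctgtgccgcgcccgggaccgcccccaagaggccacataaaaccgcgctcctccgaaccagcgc
Nr4a1 had 4 cores, beginning 246, 226, 82 and 53 bases before the start, and Egr1 had 2 cores and 2 CArG boxes. Btg2 and Dusp1 each had a full CRE, which contains 2 overlapping cores, and Dusp1 had a further core. Of the 30 early windows, 18 held a core on either strand (60%), against 3323 of the windows of 12542 tested genes (26.5%). A full CRE was found in 6 (20%) against 2.72%, a CArG box in 2 (6.67%) against 1.16%, and TATAAA in 9 (30%) against 6.91% of all windows. The AP-1 motif TGANTCA, to which Fos dimers bind, was in none of the early windows and in 4.27% of all windows, and the Egr motif GCGNGGGCG was in 4 (13.3%) against 8.25%. These matches describe letters in a short window.

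What the ranking used is given as description only. Fos ran from 16.2 to 31.2 CPM in high-Fos libraries (median 20.4) and from 3.25 to 7.90 CPM in low-Fos libraries (median 6.27). The library just outside the high-Fos group had 16.17 CPM against 16.21 for the last one inside, and the one just outside the low-Fos group had 8.13 CPM against 7.90 for the first inside. Drd1, which set the lower limit for keeping a library, ranged from 227 to 441 CPM in high-Fos and from 154 to 425 CPM in low-Fos libraries. The 12 libraries left out had at most 20.0 CPM of Drd1.

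Total expected counts were 24.6 ± 7.74 M in high-Fos and 26.2 ± 8.06 M in low-Fos libraries (SD, n = 36 each; two-sided permutation test with 100000 resamples, p = 0.384). One library stood apart. It was the lowest in Fos of the 147 kept libraries (3.25 CPM, low-Fos group, E21 label, number 5). Its median correlation with the libraries of the 2 groups was 0.923, where the next lowest was 0.960. Libraries ranked between the 2 groups were not compared in this way. Within the low-Fos group the library that stood apart was the highest in the early genes Arc, Junb, Egr1, Nr4a1, Fosb, Egr4, Sik1, Dusp1, Plk3 and Arl4d. It was the lowest in the early genes Fosl1, Jun, Atf3, Klf4, Rgs2, Trib1, Per1, Errfi1 and Pim1. It was also the highest in Dusp6 and the lowest in Gpd1 (62.9 CPM, where the next lowest low-Fos library had 88.7 CPM). Calls of early genes and listed genes that moved without it are given beside the result. In this bulk tissue, fewer cells of a type and less RNA per cell cannot be told apart.

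Of the 15325 genes that averaged 1 CPM or more over the kept libraries, 1017 differed between high-Fos and low-Fos libraries (6.64%; limma's moderated test on log2(CPM + 1), two-sided, Benjamini-Hochberg adjusted p under 0.05), 847 of them higher (5.53%) and 170 lower (1.11%) in high-Fos libraries. Changes are differences of mean log2(CPM + 1), high-Fos minus low-Fos, and this scale understates the change of low genes. Of 40 early genes other than Fos that were listed, 38 passed the filter and 29 rose in high-Fos libraries (76.3% of those tested). None fell. Maff and Amigo3 were below the filter. The p-values describe association with Fos in the same libraries, since both were measured in the same RNA.

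The early transcription factors rose broadly: 17 of 19 tested passed, with a median change of 0.45, against 0.00399 over all genes. Nr4a1, an orphan nuclear receptor, ranged from 53.6 to 162 CPM in high-Fos libraries (median 93.3) and from 22.4 to 83.1 CPM in low-Fos libraries (median 45.7). Its change was 1.07 (SE 0.09, limma adjusted p = 3.06e-14), and 26 of the 36 high-Fos libraries lay above the highest low-Fos library. Npas4, a transcription factor induced selectively by neuronal activity, ran from 5.64 to 24.2 CPM (median 13.1) in high-Fos libraries, against 1.58 to 16.1 CPM (median 4.63) in low-Fos ones. All 36 high-Fos libraries exceeded the low-Fos median, and the change was 1.35 (SE 0.12, limma adjusted p = 5.53e-14).

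The zinc-finger factors of the Egr family did not move as a block. Egr2 had 8.03 to 23.9 CPM (median 12.5) in high-Fos libraries and 3.2 to 12.2 CPM (median 6.08) in low-Fos libraries, a rise of 0.92 (SE 0.09, limma adjusted p = 7.78e-12). Egr1 had 127 to 274 CPM (median 197) in high-Fos libraries and 85.3 to 210 CPM (median 118) in low-Fos libraries, a rise of 0.68 (SE 0.06, limma adjusted p = 2.27e-13), and every high-Fos library lay above the low-Fos median for both genes. Egr4 rose by 0.42 (limma adjusted p = 0.000173). Egr3 was at 74.8 to 180 CPM (median 132) in high-Fos and 79.0 to 185 CPM (median 127) in low-Fos libraries, a difference of 0.05 that did not pass (SE 0.07, limma adjusted p = 0.693).

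Partners and relatives of Fos in the AP-1 dimer also rose. Junb had 72.9 to 137 CPM (median 97.9) in high-Fos libraries and 35.0 to 107 CPM (median 64.5) in low-Fos libraries, with a change of 0.64 (SE 0.07, limma adjusted p = 3.50e-11). Smaller rises were seen for Fosl2 (0.46), Jun (0.35) and Fosb (0.30, limma adjusted p = 0.0058), and the ranges of the groups overlapped in each. Fosl1 did not pass (0.17, limma adjusted p = 0.179). Btg2, an antiproliferative co-regulator, had the smallest p of the other factors, at 8.81 to 31.0 CPM (median 13.7) in high-Fos and 5.38 to 11.7 CPM (median 6.94) in low-Fos libraries. Its change was 0.91 (SE 0.08, limma adjusted p = 1.43e-14), with 25 high-Fos libraries above every low-Fos one. Ier2, Ier5, Atf3, Klf2, Klf4 and Nr4a3 rose by 0.40 to 0.46.

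**Figure D1:**
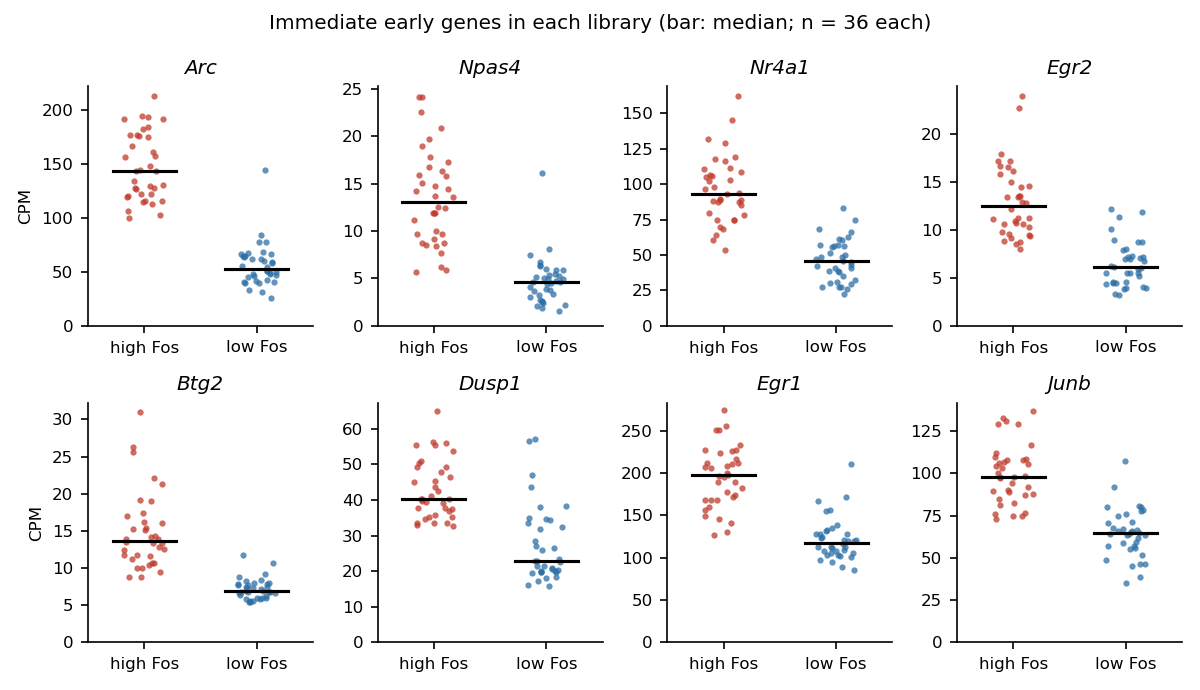
CPM of 8 immediate early genes in each of the 36 high-Fos (left) and 36 low-Fos (right) libraries, one point per rat, with a bar at the group median. The groups are shifted in all 8 genes and overlap in all of them. The single low-Fos point near 144 CPM of Arc is the library that stood apart.

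Among the effectors, 12 of 19 tested rose and none fell, with a median change of 0.26. Arc, a synaptic protein that regulates AMPA receptor trafficking, had the smallest p of all genes tested. It ran from 99.9 to 213 CPM (median 143) in high-Fos libraries and from 26.1 to 144 CPM (median 53) in low-Fos libraries, and the change was 1.41 (SE 0.09, limma adjusted p = 7.06e-22). Without the library that stood apart, the highest low-Fos value of Arc was 83.8 CPM, below every high-Fos library. Dusp1, a phosphatase that switches off MAP kinases, had 32.8 to 64.9 CPM (median 40.3) in high-Fos and 15.8 to 57.2 CPM (median 22.9) in low-Fos libraries, a rise of 0.69 (SE 0.09, limma adjusted p = 6.91e-08). Some low-Fos libraries reached the high-Fos range for this gene.

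Sik1, a salt-inducible kinase that restrains CREB-driven transcription, was at 15.4 to 35.1 CPM (median 21.5) in high-Fos libraries and at 9.68 to 22.3 CPM (median 14.2) in low-Fos libraries, with a change of 0.58 (SE 0.05, limma adjusted p = 7.81e-14). Gadd45g, a growth-arrest and DNA-damage gene, rose by 0.56 (SE 0.06, limma adjusted p = 1.46e-09), and the pseudokinase gene Trib1 by 0.62 (SE 0.08, limma adjusted p = 2.80e-07). Ccn1, which encodes a secreted matrix-associated protein, was uneven within the high-Fos group, from 0.273 to 15.8 CPM (median 2.05), and ran from 0.202 to 1.69 CPM (median 0.675) in low-Fos libraries. Its log2 values had an SD of 0.87 in high-Fos and 0.30 in low-Fos libraries, and the change was 1.04 (SE 0.15, limma adjusted p = 1.21e-06). Ptgs2 (cyclooxygenase 2), Arl4d, Tiparp, Ppp1r15a, Csrnp1 and Plk2 rose by 0.17 to 0.47.

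Several genes of the early set did not pass. Homer1 was at 117 to 229 CPM (median 175) in high-Fos libraries and 105 to 229 CPM (median 174) in low-Fos libraries, a difference of 0.02 (SE 0.06, limma adjusted p = 0.879). The deposited values are per gene, so the short activity-induced Homer1 transcript cannot be told apart from the long constitutive ones. Per1, an early gene that is also part of the circadian clock, differed by 0.02 (limma adjusted p = 0.860), and Errfi1, a feedback inhibitor of the EGF receptor, by -0.08 (limma adjusted p = 0.362). Gadd45b, Plk3, Pim1 and Rgs2 did not pass either, with changes of 0.11 to 0.26.

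**Figure D2:**
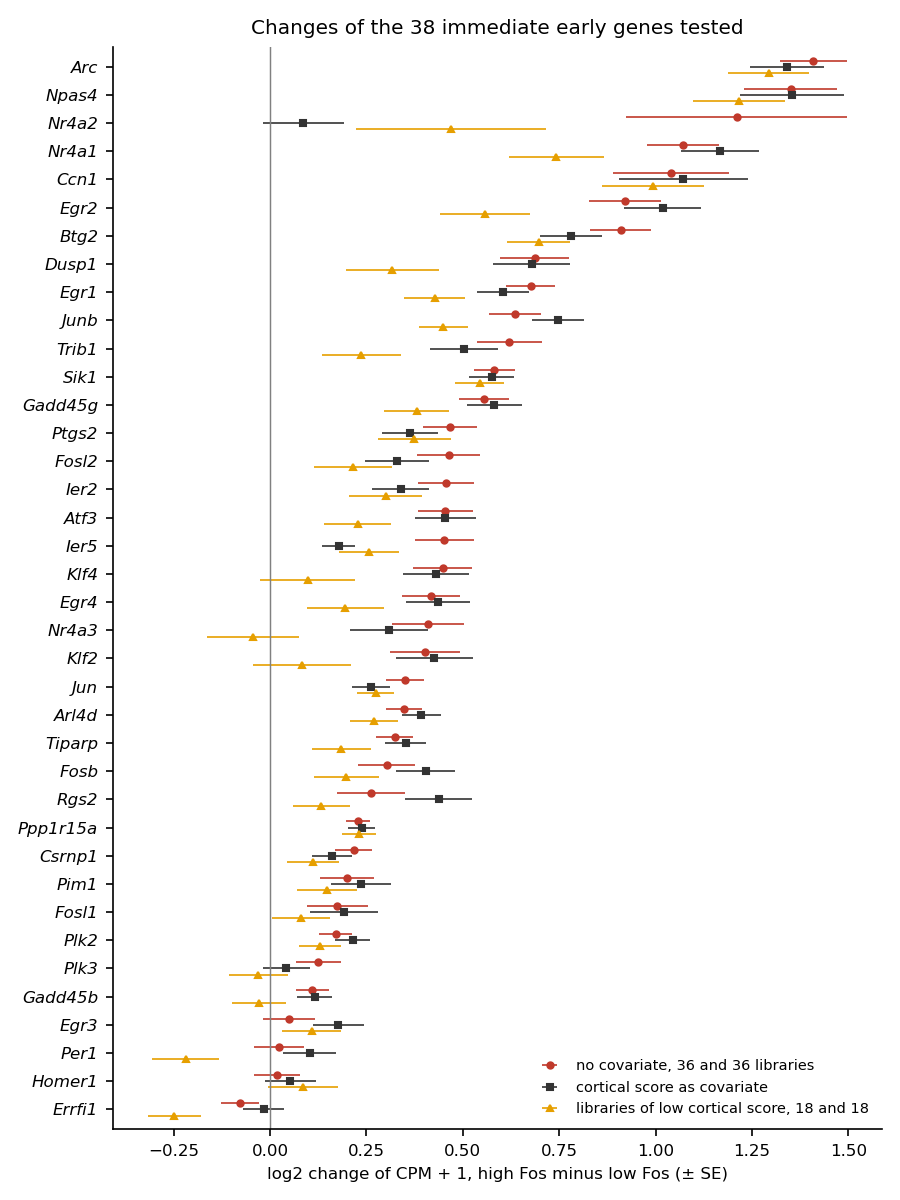
Log2 change (high-Fos minus low-Fos, with its SE) of the 38 early genes tested, ordered by the change without covariate, in 3 fits: without covariate, with the cortical score as covariate, and in Fos groups made among libraries of low cortical score. Arc and Npas4 keep changes above 1.2 in all 3, whereas Nr4a2 drops to 0.09 with the covariate.

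The 2 groups of 37 libraries in between were used to see whether levels were graded. Median Arc was 53 CPM in the low-Fos group, 79.1 in the lower middle, 102 in the upper middle and 143 in the high-Fos group. Npas4 had medians of 4.63, 6.60, 10.7 and 13.1 CPM over the same series, Nr4a1 45.7, 60.02, 70.6 and 93.3 CPM, and Btg2 6.94, 8.11, 9.72 and 13.7 CPM. Medians of these 4 genes stepped up with Fos, while Egr3 (127, 133, 124 and 132 CPM) and Homer1 (174, 182, 161 and 175 CPM) showed no such order. Between the upper and lower middle groups, with median Fos of 13.8 against 10.1 CPM, no gene passed limma's threshold (852 of 15325 had an unadjusted p under 0.05, 5.56%). Of the 38 early genes, 32 were higher in the upper middle group, where 46.5% of all genes were, and 14 had an unadjusted p under 0.05. The smallest p of all genes was again that of Arc (change 0.36, SE 0.08, limma adjusted p = 0.225).

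**Figure D3:**
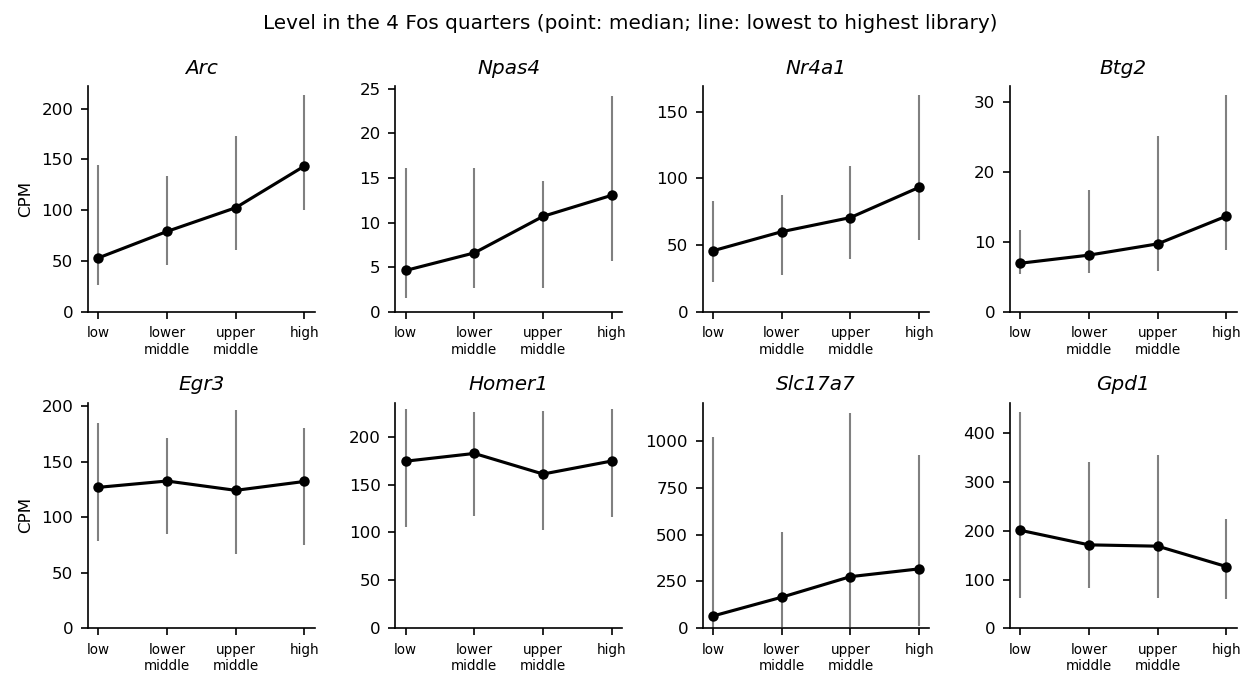
Level in CPM in the 4 Fos groups, low to high, for 8 genes (point: median of 36 or 37 libraries; line: lowest to highest library). Medians of Arc, Npas4, Nr4a1 and Btg2 step up over the groups, those of Egr3 and Homer1 do not, Slc17a7 rises with a very wide range, and Gpd1 steps down.

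Rankings by other early genes overlapped with the Fos ranking to different degrees. Of the 36 libraries highest in a given early gene, between 5 and 25 were high-Fos (median 19 over 38 genes), where an even spread over the kept libraries would give 8.82. For 21 genes more than 18 of the 36 were high-Fos, and for 14 genes fewer. Of the 36 libraries highest in Arc, 25 were high-Fos and 1 low-Fos, and the same counts were 25 and 0 for Nr4a1, 24 and 1 for Egr1, and 23 and 2 for Junb. For Homer1 they were 7 and 10, and for Errfi1 5 and 16. All of Junb, Egr1 and Nr4a1 were above their median over the kept libraries in 28 of 36 high-Fos and 3 of 36 low-Fos libraries, and none of them was in 0 high-Fos and 29 low-Fos libraries. Libraries within a group varied by a median log2 SD of 0.281 (high-Fos) and 0.306 (low-Fos) over the early genes, against 0.202 and 0.255 over all genes.

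A second set of genes moved with Fos. Markers of cortical glutamatergic neurons, which should be scarce in accumbens tissue, were higher in high-Fos libraries, 6 of 8 passing with a list median of 1.16. Slc17a7, which loads glutamate into synaptic vesicles of cortical projection neurons, ran from 14.0 to 926 CPM (median 317) in high-Fos libraries and from 1.92 to 1022 CPM (median 65.7) in low-Fos libraries, a rise of 1.88 (SE 0.42, limma adjusted p = 0.0034). The ranges overlapped fully. Tbr1, a transcription factor found in deep-layer cortex, rose by 1.53 (SE 0.34, limma adjusted p = 0.0029), and Neurod2, Neurod6 and Emx1 by 0.78 to 1.31, while Cux2 and Fezf2 did not pass. Besides Arc, Npas4 and Nr4a2, the 15 largest rises of genes with a symbol included Slc17a7, Tbr1, Ccn3, Slc30a3, Smim43, Neurod2, Neurod6, Cplx3, Nxph3, Prss12 and Sidt1. The summed level of the 8 cortical markers ranged from 63.4 to 1168 CPM in high-Fos and from 26.3 to 1314 CPM in low-Fos libraries, and none of the 8 was at 0 throughout. A score averaging them lay above the median of the kept libraries in 27 of 36 high-Fos and 10 of 36 low-Fos libraries.

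Early genes and cortical markers were also compared with that score as a covariate. Of all genes, 99 then passed (0.646%), 89 higher (0.581%) and 10 lower (0.0653%) in high-Fos libraries, and 84 of them had also passed without it. Of the early genes, 27 of 38 passed (71.1%), including 26 of the 29 called before. Changes with the covariate were 1.34 for Arc (SE 0.10, limma adjusted p = 2.48e-18), 1.35 for Npas4 (SE 0.14, limma adjusted p = 6.33e-12), 1.17 for Nr4a1 (SE 0.10, limma adjusted p = 3.63e-14), 1.02 for Egr2, 0.78 for Btg2, 0.75 for Junb and 0.60 for Egr1. These are close to the changes without it. Of 13 called genes that rose by at least 0.5 with the covariate, 12 were early genes. Without the covariate, 13 of the 126 called genes with such a rise were early genes (10.3%).

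Some early genes changed less with the cortical score in the fit. Nr4a2, an orphan nuclear receptor also expressed in deep cortex and claustrum, ran from 2.42 to 58.7 CPM (median 23.9) in high-Fos and from 1.32 to 50.5 CPM (median 6.30) in low-Fos libraries. Its change of 1.21 (SE 0.29, limma adjusted p = 0.0046) became 0.09 with the covariate (SE 0.10, limma adjusted p = 0.762). The calls of Nr4a3 (0.31, limma adjusted p = 0.183) and Csrnp1 (0.16, limma adjusted p = 0.168) were also lost, Ier5 shrank to 0.18, and Rgs2, a regulator of G-protein signalling, passed (0.44, limma adjusted p = 0.0017). None of the 8 cortical markers passed with the covariate, which was built from them.

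In a further comparison, chosen after the data were seen, Fos groups were made among the kept libraries at or below the median cortical score, with 18 libraries in each group. Fos medians were 16.1 against 5.80 CPM, and 73 genes passed (0.476%). Of the 38 early genes, 13 passed (34.2%), all higher in high-Fos libraries, among them Arc (1.29, SE 0.11, limma adjusted p = 1.13e-10), Npas4 (1.22, SE 0.12, limma adjusted p = 1.17e-08), Ccn1 (0.99), Nr4a1 (0.74), Btg2 (0.70), Egr2 (0.56), Sik1 (0.54), Junb (0.45) and Egr1 (0.43). Dusp1 did not pass there (0.32, limma adjusted p = 0.319). Median changes were smaller than in the full groups. They were 0.256 against 0.45 for the early transcription factors and 0.184 against 0.26 for the effectors. Of the 29 early genes called in the full groups, 13 kept the call, 15 lost it and 1 changed sign. The cortical markers stayed positive in 7 of 8 cases, with Slc17a7 at 1.06 (SE 0.47, limma adjusted p = 0.438), and none passed. The contribution of cortical tissue to the remaining changes was not tested further.

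**Figure D4:**
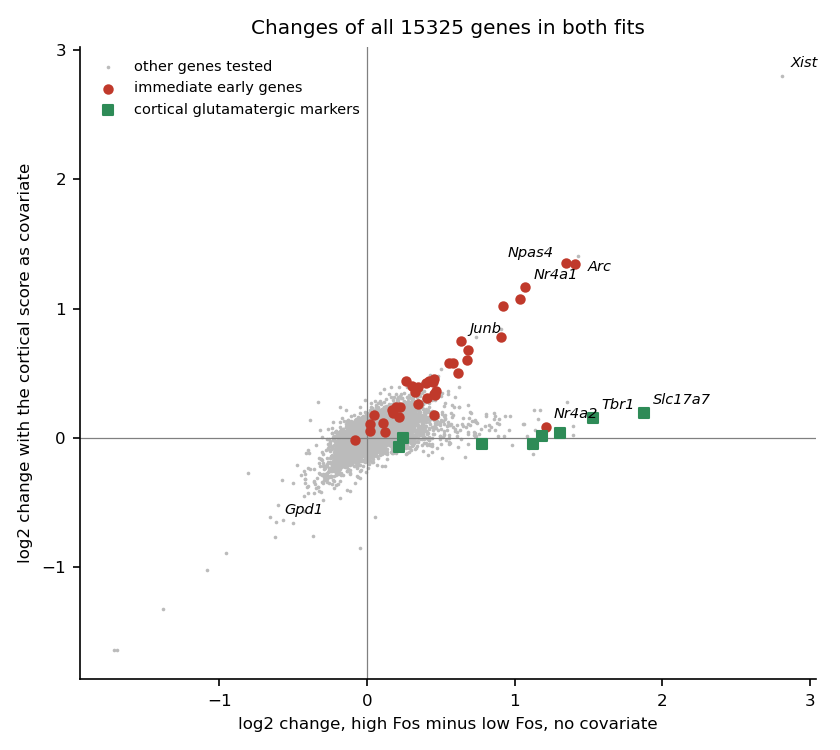
Log2 change of each of the 15325 genes tested, high-Fos minus low-Fos, without covariate (horizontal) and with the cortical score as covariate (vertical). Early genes (red) lie near the diagonal up to Arc and Npas4, and the cortical markers (green squares) lie along the horizontal axis, as does Nr4a2; Xist, at the far upper right, did not pass in either fit.

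Markers of other cell types differed less. Among shared medium spiny neuron genes, Arpp21 passed of 12 (-0.18, limma adjusted p = 0.034), and of 6 markers each of D1 and D2 neurons Sfxn1 passed (0.10, limma adjusted p = 0.029). Over all genes tested 6.64% passed, so a single call in a short list does not set it apart. Summed levels of the D1 list were 610 to 1030 CPM in high-Fos and 449 to 1063 CPM in low-Fos libraries. No marker of astrocytes, mature oligodendrocytes, oligodendrocyte precursors, endothelium, mural cells, meningeal fibroblasts, cholinergic interneurons, ependyma or red blood cells passed. Without the library that stood apart, the astrocyte gene Sox9 (0.29, limma adjusted p = 0.0204), the interneuron genes Zic4 (cholinergic list, 0.235) and Pvalb (0.36), the precursor gene Cspg4 (-0.16) and the medium spiny neuron gene Gng7 (-0.17) passed as well. Vip passed among interneuron genes (0.66, limma adjusted p = 0.041), and Slc17a6, Trpc4 and Zic1 of 5 septal and pallidal genes rose by 0.32 to 0.97. With the cortical score as covariate, Arpp21, Sfxn1, Vip, Slc17a6, Trpc4 and Zic1 did not pass. All 11 microglial genes were lower in high-Fos libraries, and of these Tmem119 passed (-0.29, limma adjusted p = 0.011), with a list median of -0.145. Of all 15325 genes tested, 7951 were higher. Tmem119 did not pass with the cortical score (-0.29, limma adjusted p = 0.0923), but did when the library that stood apart was also left out (-0.33, limma adjusted p = 0.0237). The midbrain dopamine markers Th, Slc6a3, En1 and Pitx3 had means under 1 CPM.

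**Figure D5:**
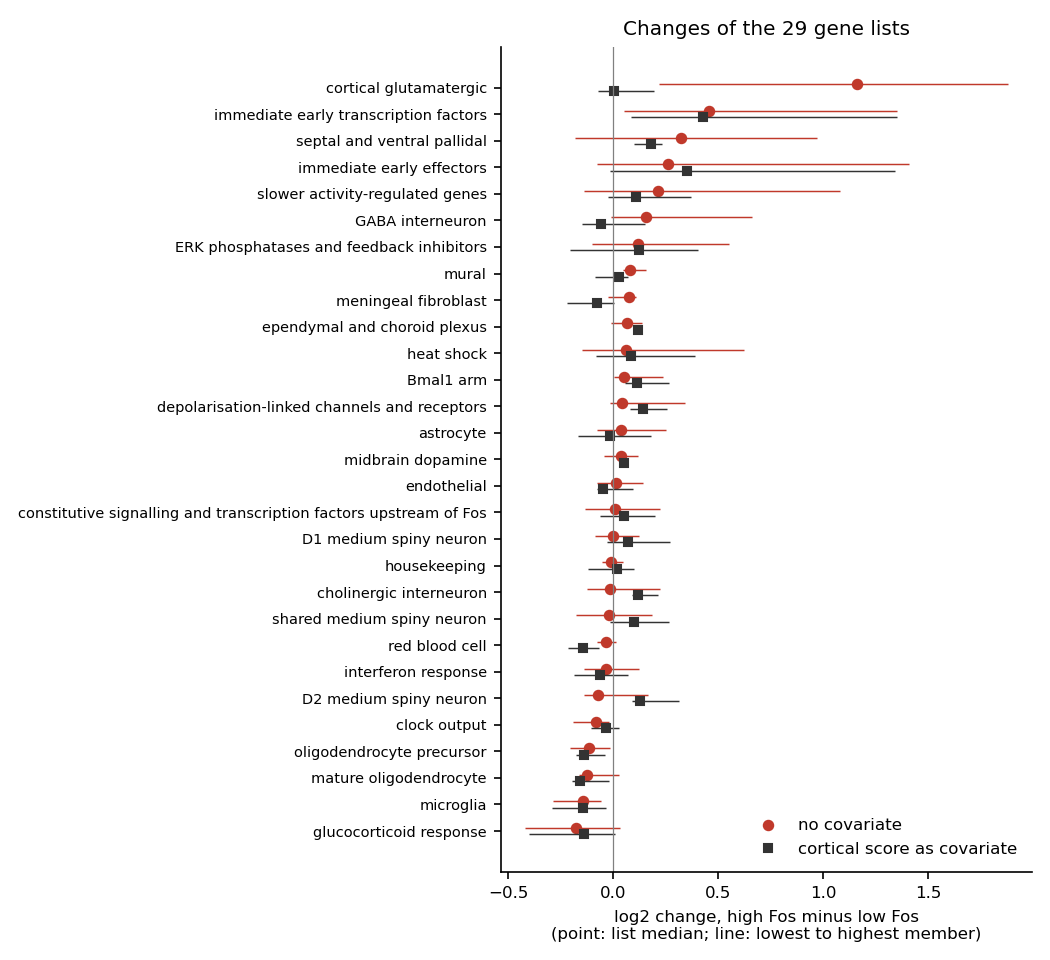
Median log2 change (point) and range over members (line) of the 29 gene lists, high-Fos minus low-Fos, without covariate (red) and with the cortical score as covariate (black). The early transcription factors have a median of 0.43 with the covariate and 0.45 without it, the early effectors 0.35 with and 0.26 without, and the cortical markers near 0 with and 1.16 without.

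The comparison was repeated within the label groups. Within numeric libraries (15 high-Fos, 14 low-Fos) 21 genes passed (0.137%), 14 of them early genes, and within E21 libraries (14 high-Fos, 21 low-Fos) 124 passed (0.809%), 18 of them early genes. Arc changed by 1.52 in numeric and 1.36 in E21 libraries, Npas4 by 1.61 and 1.22, Nr4a1 by 1.22 and 1.02, and Junb by 0.73 and 0.60, with a largest limma adjusted p of 0.000303 among these. Slc17a7 did not pass within either label (1.09 in numeric, 2.06 in E21 libraries). The difference between the 2 labels was tested for every gene as an interaction, and none passed (228 of 15325 at an unadjusted p under 0.05, smallest limma adjusted p = 1). Of the 38 early genes, 3 had an unadjusted p under 0.05, and Dusp1 had the smallest (E21 minus numeric -0.49, SE 0.19, unadjusted p = 0.0104). Corrected E21 and AA1 libraries were too few for a comparison of their own.

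Xist, the transcript of the inactive X chromosome, was at 100 CPM or more in 25 of 36 high-Fos and 14 of 36 low-Fos libraries (two-sided Fisher's exact test, p = 0.0174). This test and its cut at 100 CPM were not planned beforehand. The 14 low-Fos libraries include the one that stood apart, at 106 CPM. The log2 change of Xist itself, 2.81 (SE 1.04), did not pass (limma adjusted p = 0.088). With Xist at 100 CPM or more as a covariate, in a fit added after the data were seen, all 29 early genes called before still passed, Arc at 1.4 and Nr4a1 at 1.04. Of all 15325 genes, 677 passed in that fit, 602 higher and 75 lower, against 1017 without the covariate.

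Other genes linked to early gene signalling moved in part. Of 12 phosphatases and inhibitors that feed back on ERK, 5 rose, and Dusp6 the most, with 11.6 to 31.9 CPM (median 20.7) in high-Fos libraries and 8.39 to 22.0 CPM (median 13.0) in low-Fos libraries. Its change was 0.55 (SE 0.07, limma adjusted p = 6.73e-09), and Dusp5, Dusp4, Spry4 and Spry2 rose by 0.15 to 0.38. Without the library that stood apart, Dusp14 (0.17) and Sh2d3c (0.11) passed too. With the cortical score Dusp6, Dusp5 and Spry1 passed, joined without that library by Dusp14 (0.25) and Spry2 (0.14). Of 20 constitutive kinases and transcription factors that act upstream of Fos, such as Creb1 and Srf, Elk1 passed, by -0.08 (limma adjusted p = 0.041). The median of that list was 0.01, and 6.64% of all genes tested passed.

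Slower activity-regulated genes, which follow the early wave and include growth factors and neuropeptide precursors, split. Of 16, 7 rose without covariate, among them Bdnf (0.89, limma adjusted p = 0.0076) and Nrn1 (1.08, limma adjusted p = 0.0067), but with the cortical score these were at 0.01 and 0.02, and Gpr3, a constitutively active receptor, was the one that passed (0.32, limma adjusted p = 0.0068). The opioid precursor Pdyn (-0.08) and the tachykinin precursor Tac1 (-0.04) of medium spiny neurons did not pass. Of 10 depolarisation-linked channels and receptors, Grin2a rose without the covariate (0.34) and Kcnj2 with it (0.26). Over all genes tested, 6.64% passed without the covariate and 0.646% with it. The heat shock genes Hspa1b (0.63, limma adjusted p = 3.77e-05) and Hspa1a (0.35) rose, and the other 8 of the list did not pass. With the cortical score Hspa1b changed by 0.39 (limma adjusted p = 0.0299), and by 0.36 without the library that stood apart, where it did not pass (limma adjusted p = 0.0502).

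Genes that fell in high-Fos libraries changed less than those that rose. Gpd1, the cytosolic glycerol-3-phosphate dehydrogenase, was the one called gene with a fall of at least 0.5. It was at 60.3 to 224 CPM (median 127) in high-Fos libraries and at 62.9 to 444 CPM (median 201) in low-Fos libraries, with a change of -0.62 (SE 0.13, limma adjusted p = 0.0019). Over the 4 groups its median was 201, 171, 169 and 127 CPM, low to high Fos. Slc19a3, a thiamine transporter, had 2.65 to 8.10 CPM (median 4.31) in high-Fos and 3.10 to 10.6 CPM (median 6.69) in low-Fos libraries (-0.43, SE 0.08, limma adjusted p = 0.000656). Both groups covered much of the same range, though only 2 high-Fos libraries exceeded the low-Fos median. Among genes with a symbol, the other 13 of the 15 largest falls lay between -0.29 and -0.40, among them Hif3a, Camk1g, Slc10a6 (a transporter of sulfated steroids), Rgs10, Colq, Gchfr and Tnfrsf11a.

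With the cortical score as covariate, Gpd1 (-0.65, limma adjusted p = 0.0077), Slc19a3 (-0.45), Hif3a (-0.43), Slc10a6 (-0.36), Tnfrsf11a (-0.35) and Pla2g3 (-0.33) still passed, and Camk1g, Colq, Rgs10 and Gchfr did not. Glucocorticoid-responsive genes were lower in 11 of 12 cases, with a list median of -0.18, but none passed in the main fit of the full groups. Of all 15325 genes tested, 7951 were higher, with a median of 0.00399. Without the library that stood apart, Fkbp5 (-0.13), Tsc22d3 (-0.17) and Arrdc2 (-0.23) passed. Other settings also called members of this list lower. They were 2 after quantile normalization, 4 in a slope on log2 Fos and 2 for 14 against 14 libraries. Over all 15325 genes, these settings called 370, 599 and 615 lower. Among libraries of low cortical score, 4 of the 12 glucocorticoid-responsive genes passed, all lower in high-Fos libraries. They were Sgk1 (-1.07, SE 0.20, limma adjusted p = 0.0048), Pdk4 (-0.90), Cdkn1a (-0.62) and Tsc22d3 (-0.32). Over all genes 73 passed in that fit (0.476%), 20 of them lower. Of 9 clock output genes, Dbp (-0.18, limma adjusted p = 0.021) and Bhlhe41 (-0.19, limma adjusted p = 0.016) fell, and no gene of the Bmal1 arm passed. Nfil3, in that arm and in the list of slower activity genes, passed without the library that stood apart (0.25, limma adjusted p = 0.0391). The arm had 1 gene called with the label group as covariate, with or without 5 cell type scores, and with the clock and glucocorticoid scores. It also had 1 in numeric libraries and 1 in a slope on log2 Fos over the kept libraries. With the clock output and glucocorticoid scores as covariates, 132 genes passed (0.861%), and 27 of the 29 early genes kept their call.

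No interferon-response or housekeeping gene passed. Leaving out the library that stood apart gave 1141 called genes (7.45%), of which 868 were higher and 273 lower in high-Fos libraries, so that 76.1% rather than 83.3% were higher. Of the early genes 30 then passed: the 29 called before and Rgs2 (0.19, limma adjusted p = 0.0213).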

How the data were processed

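The deposited table gives, per the file headers and values, log2 of an estimated (expected) count plus 1 for 38354 genes in 159 libraries. Per the submitters' processing notes it was made with kallisto 0.48; its build and annotation were not given in the sources used here. Labels list 192 libraries, of which 33 marked as removed were not analysed here. Each label names another rat, and p-values measure the spread between these libraries.

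Values were back-transformed (2 to the power of the value, minus 1) and scaled to CPM. Kept libraries were ranked by Fos, and floor of n/4 libraries were taken at each end. Genes averaging 1 CPM or more over the 147 kept libraries, without Fos and Drd1, were compared on log2(CPM + 1) with limma 3.58.1 (trend, two-sided, Benjamini-Hochberg adjusted over 15325 genes) in R 4.3.3, after a test on simulated data. Other steps used Python 3.11.15, numpy 2.4.6, pandas 2.3.3 and scipy 1.17.1. The cortical score is the mean standardised log2 level of the 8 cortical glutamatergic markers. Named genes were all tested early genes, the 15 largest rises and falls among called genes with a symbol, and up to 4 members of each of the other lists with the smallest p; genes chosen otherwise are stated as such, and values of some genes are not reported here. The members and the 29 lists were chosen with earlier results of these data known. Sequences are from RefSeq, assembly GRCr8.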

Additional observations from a re-analysis of the deposited data

How the results depend on the processing

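Of the 29 early genes called, 9 were called higher in each of 25 fits (the middle groups and the rank-sum test were not counted): Junb, Egr1, Egr2, Nr4a1, Npas4, Btg2, Arc, Gadd45g and Sik1. Over all settings, 633 of 721 values of the 29 genes kept direction and call, 85 lost the call and 3 turned. No paired analysis was possible because replicate numbers only count libraries within a label format. Leaving out each of 36 libraries was not run; the library that stood apart was.

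The count of called genes, 1017 in all and 127 at an absolute change of 0.5, was 591 and 57 for the 49 highest against the 49 lowest in Fos, 1988 and 518 for 14 against 14, 0 and 0 for the middle groups, and 3037 and 430 without the Drd1 minimum. It was 2275 for a slope on log2 Fos and 1894 with total count as covariate. It was 99 and 14 with the cortical score, 124 and 12 with label and 5 cell type scores, 132 and 15 with clock and glucocorticoid scores, 21 and 15 in numeric libraries, 124 and 56 in E21 libraries, and 485 and 67 with groups made within labels. Among fits added after the data were seen, it was 73 and 20 at low cortical score, 677 with the Xist covariate, and 100 and 13 without the library that stood apart and with the cortical score. At 0.5 it was 57 with a pseudocount of 5 and 83 at a mean of at least 5 CPM. Without a CPM minimum 687 passed. Of called genes, 83.3% were higher in high-Fos libraries, 66.4% after quantile normalization, 74.9% with median-of-ratios scaling, 73.7% for the slope, 74.5% with total count as covariate, 69.1% for 14 against 14 and 57.2% without the Drd1 minimum.

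Log2 changes that turned, with causes not tested, were, in the middle groups, Klf4 -0.0126, Ptgs2 -0.0151, Ankra2l1 0.12, Slc10a6 0.00509, Tnfrsf11a 0.0628, Sult5a1 0.0277, Tmem119 0.0953, Zic1 -0.124, Grin2a -0.000171 and Slc25a25 -0.00595. At low cortical score Nr4a3 was -0.0432. With the cortical score Arpp21 was 0.0074 and Vip was -0.147; with that library left out too, Ccn3 was -0.047, Arpp21 0.0182 and Vip -0.14. With label and cell type scores Arpp21 was 0.00843, Vip -0.0219, Zic1 -0.0279 and Grin2a -0.0695. Without the Drd1 minimum Elk1 was 0.278, Arpp21 1.17, Ret -1.37, Slc17a6 -0.0412, Hspa1a -0.00138 and Dbp 0.066. Depth is given as total expected counts and limits low genes such as Ccn1 and Atf3 most.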

Other observations

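Some genes outside the lists were picked by their values and are given as such. Apold1, an early response gene of endothelium, was at 5.83 to 29.4 CPM (median 15.3) in high-Fos and 4.13 to 21.9 CPM (median 7.92) in low-Fos libraries, a change of 0.74 (SE 0.12, limma adjusted p = 1.43e-05) and of 0.78 with the cortical score. The Notch ligand Dll4 (0.39), the VEGF receptor Kdr (0.35) and the secreted protease Adamts1 (0.48) also rose, by 0.36, 0.30 and 0.48 with the cortical score. Of the 7 tested genes of the endothelial list none passed (median 0.0137; limma).

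Klf10 (0.40), the Egr co-repressor Nab2 (0.19), the mitochondrial carrier Slc25a25 (0.18) and Tnfaip3, an inhibitor of NF-kappaB signalling (0.17), rose too, and each passed with the cortical score (0.22, 0.23, 0.31 and 0.22).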
